A study of Mus musculus with 80 samples.

Results

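The granin and neuropeptide processing genes were 8 of the 21938 protein-coding genes on chromosomes 1 to 19, X and Y in GENCODE release M21 (mm10): Chga, Chgb, Scg2, Scg3, Scg5, Vgf, Pcsk1n and Cpe. The genes were chosen from measured values of these libraries, because their gene bodies carried intervals in KO livers, so the number of livers called and the fold enrichment are descriptions and were not tested. An interval counted for a gene when it shared at least 1 bp with the gene body. Of 589904 intervals in 40 libraries, 536 met this rule, and they merged into 55 of 215015 sites.

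RXR binding was measured by ChIP-Seq in livers of male mice aged 5 months. They were either wildtype C57BL6/J (WT) or had PPARγ deleted from the liver by an albumin-driven Cre acting on a loxP-flanked PPARγ gene (KO). The paper names C57BL6/J for the WT mice only and bred the KO mice from PPARγ-loxP and Alb-Cre mice, so mouse line cannot be told apart from genotype. Feeding lasted 12 weeks, on a control or a high-fat diet and without pioglitazone (Control, HFD) or with it (Pio, HFD-Pio), and each of the 8 groups had 5 livers. RXR is the nuclear receptor that pairs with PPARγ on DNA, and pioglitazone is a PPARγ agonist. The labels of 15 KO libraries (Pio, HFD and HFD-Pio) named no antibody although their titles named RXR, and they were taken as RXR ChIP. Albumin-driven Cre deletes in hepatocytes, so other liver cells of KO mice keep the gene.

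Granins are acidic secretory proteins that pack peptide hormones and neuropeptides into dense-core granules of neurons and endocrine cells. In these granules prohormone convertases cut precursors at pairs of basic residues, and carboxypeptidase E, the product of Cpe, trims the basic residues left at the ends. Scg5 encodes 7B2, the chaperone and inhibitor of convertase PCSK2, and Pcsk1n encodes proSAAS, an inhibitor of convertase PCSK1. These genes mark neurons and neuroendocrine cells and are not part of the usual programme of hepatocytes.

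Most intervals of KO livers lay on exons, so the sequences of exons under the most often called sites are shown with their splice edges, 5′ to 3′ on the coding strand. Capitals mark coding exon bases and lower case marks 30 intron bases. The first 3 sequences are whole internal exons: Cpe exon 5 of 9 (chr8:64609018-64609260, minus strand, summit in 20 of 20 KO livers), Scg3 exon 7 of 12 (chr9:75669185-75669422, minus strand, 12 livers) and Scg5 exon 3 of 6 (chr2:113791850-113792059, minus strand, 12 livers). The other 3 are the first 90 bases of longer exons: Chga exon 6 of 8 (chr12:102561637-102561756, plus strand, 16 livers), Chgb exon 4 of 5 (chr2:132792300-132792419, plus strand, 19 livers) and Pcsk1n exon 2 of 3 (chrX:7922018-7922137, plus strand, 20 livers). Sequences are from the RefSeq GRCm38.p6 assembly.
Cpe exon 5: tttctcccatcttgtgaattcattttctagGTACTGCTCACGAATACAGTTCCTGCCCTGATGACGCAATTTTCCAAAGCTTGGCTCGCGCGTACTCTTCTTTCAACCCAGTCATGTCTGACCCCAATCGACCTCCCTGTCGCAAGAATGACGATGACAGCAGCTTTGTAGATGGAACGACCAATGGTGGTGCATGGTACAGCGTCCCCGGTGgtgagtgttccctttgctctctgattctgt
Scg3 exon 7: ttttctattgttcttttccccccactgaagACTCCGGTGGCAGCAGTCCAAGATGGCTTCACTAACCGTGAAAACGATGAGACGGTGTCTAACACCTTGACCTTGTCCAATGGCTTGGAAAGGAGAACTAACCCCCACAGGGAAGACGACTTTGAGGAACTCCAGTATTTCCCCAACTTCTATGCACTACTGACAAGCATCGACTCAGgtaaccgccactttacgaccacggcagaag
Scg5 exon 3: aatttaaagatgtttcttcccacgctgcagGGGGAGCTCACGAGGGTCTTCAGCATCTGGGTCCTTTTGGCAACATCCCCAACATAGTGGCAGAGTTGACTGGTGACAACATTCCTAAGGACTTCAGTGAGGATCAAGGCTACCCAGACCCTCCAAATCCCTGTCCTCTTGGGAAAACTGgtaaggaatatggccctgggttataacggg
Chga exon 6: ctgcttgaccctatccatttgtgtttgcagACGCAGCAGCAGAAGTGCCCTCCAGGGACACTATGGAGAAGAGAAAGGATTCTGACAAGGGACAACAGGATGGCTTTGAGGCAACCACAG
Chgb exon 4: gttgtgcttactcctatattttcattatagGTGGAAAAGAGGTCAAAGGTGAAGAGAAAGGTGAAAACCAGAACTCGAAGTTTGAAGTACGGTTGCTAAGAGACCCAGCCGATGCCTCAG
Pcsk1n exon 2: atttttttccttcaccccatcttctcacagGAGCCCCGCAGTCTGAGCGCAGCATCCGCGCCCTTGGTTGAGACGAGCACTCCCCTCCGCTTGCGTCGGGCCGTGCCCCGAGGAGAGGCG
The intron bases before each printed exon ended in ag, and those after the 3 whole exons began with gt, the splice acceptor and donor. The site over Cpe exon 5 was 442 bp long around an exon of 183 bp. The site over Chga exon 6 was 534 bp around 417 bp, that over Chgb exon 4 was 1775 bp around 1766 bp, and that over Pcsk1n exon 2 was 667 bp around 467 bp.

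WT and KO libraries differed in depth and in the cutoff of the peak caller, and neither can be told apart from genotype. WT libraries kept 2.04 to 4.26 M tags and were called at p of 0.001, and KO libraries kept 0.628 to 1.06 M tags and were called at q of 0.05. WT libraries held 579 to 33705 intervals and KO libraries 7630 to 30437. The estimated fragment length was 119 to 168 bp in KO libraries and under 50 bp in 6 WT libraries, all with Pio or HFD-Pio. KO Control replicate 4 and KO HFD replicate 5 stood apart with 7630 and 8311 intervals, the fewest of the KO libraries.

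Neuron markers were also called mostly in KO livers, and most hepatocyte markers had no interval there. The tissue of the KO libraries is known only from the label and was not tested. These lists were written with earlier results known and cannot settle it. Of 18 neuron markers, 13 were called in at least 3 of 5 livers of each of the 4 KO groups, beside 20.3% of all genes. The summed fold enrichment of the neuron list was 141.5 to 246.4 in KO livers against 0 to 51.8 in WT livers. In WT livers 4 of the 18 were called in at least 3 of 5 livers with Pio and 4 with HFD-Pio, against 1 with Control and 0 with HFD. Tubb3, the neuronal tubulin, had an interval in 20 of 20 KO livers with a mean strongest fold enrichment of 44.4, and 65 of its 68 KO intervals had their summit in an exon. Stmn2, Gap43 and Uchl1, also neuronal, were called in 20 of 20 KO livers at means of 24.3, 25.6 and 22.0. Th, Dbh and Prph, markers of catecholamine and peripheral neurons, had no interval in any KO liver. Of 16 hepatocyte markers, 13 had no interval in any KO liver, Alb and Apoa1 among them, beside 9274 of all 21938 genes. WT livers had few such calls too, with Alb in 2 of 20 livers and Apoa1 in 1. Of the 16, 0 were called in at least 3 of 5 WT livers with Control or HFD, 2 with Pio and 3 with HFD-Pio. Ttr, made by hepatocytes and by the choroid plexus of the brain, was called in 20 of 20 KO livers at a mean of 20.6. The summed fold enrichment of the hepatocyte list was 13.9 to 27.3 in KO livers (median 22.7), with 1 to 3 genes called, and 0 to 43.3 in WT livers (median 5.23). What these marker intervals have to do with the granin result was not tested. "KO liver" below means a library with that label, and neither the tissue nor the RXR antibody behind the KO libraries was checked by other means, so each KO value rests on the label.

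In WT livers 0 of 8 genes were called in at least 3 of 5 livers in any group, and in KO livers 7 of 8 were called in each of the 4 groups. The 7 were Chga, Chgb, Scg2, Scg3, Scg5, Pcsk1n and Cpe in every KO group, and Vgf did not reach 3 livers. Over all protein-coding genes the share called was 24.3% in KO Control, 29.0% in KO Pio, 25.7% in KO HFD and 27.6% in KO HFD-Pio. In WT livers it was 2.21% with Control, 0.515% with HFD, 12.7% with Pio and 10% with HFD-Pio. The rule used these calls, so nothing is read from the difference between the members and all genes. Counted gene by gene and liver by liver, 138 of 160 pairs were called in KO livers and 8 of 160 in WT livers. Of all genes, 20.3% were called in each of the 4 KO groups, as 7 of the 8 members were. Of all genes, 4.27% were also called in 0 of 20 WT livers, as 3 members were (Chgb, Scg5 and Pcsk1n), and 11.4% in at most 3 WT livers, a limit set after the members' values were seen, as 7 members were.

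**Figure D1:**
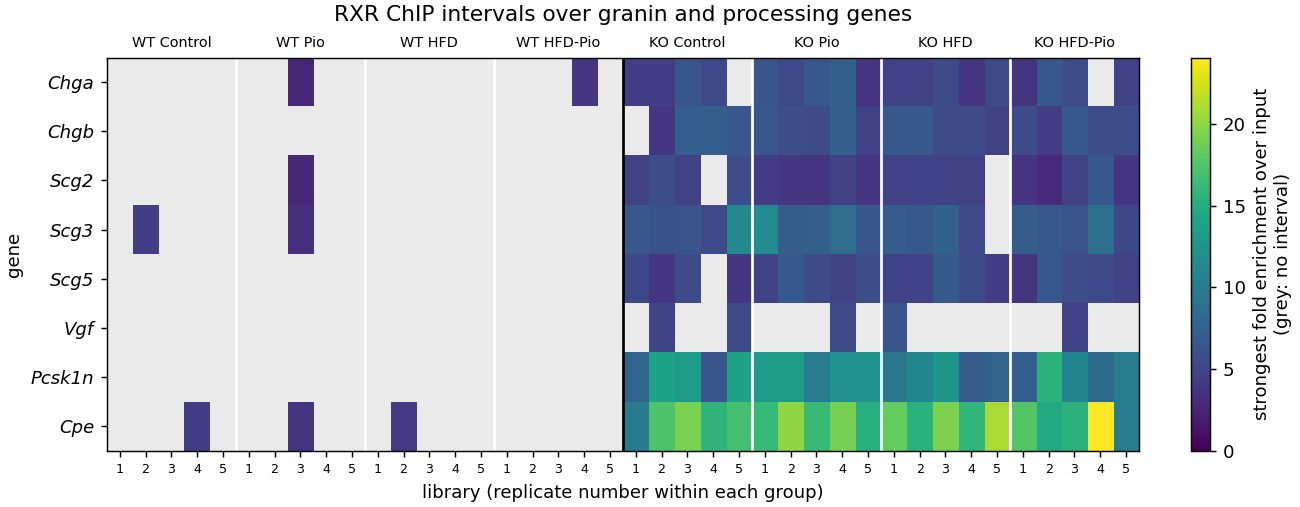
Strongest fold enrichment over input of any interval on each gene (rows) in each of the 40 libraries (columns, 5 livers a group), with grey for no interval. In the KO columns 138 of 160 cells are coloured, with most grey cells in the Vgf row, 8 cells are coloured in the WT columns, and Cpe and Pcsk1n have the highest values.

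**Figure D2:**
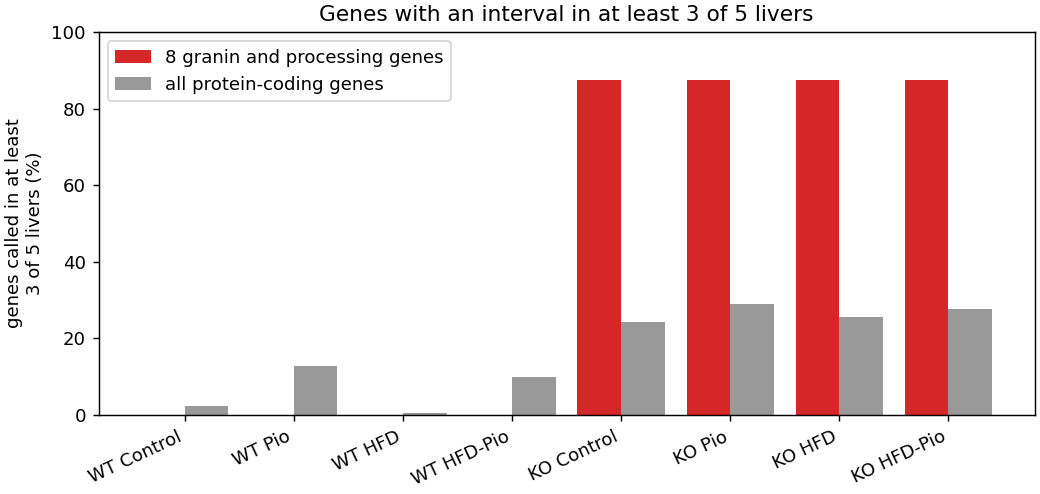
Percentage of genes with an interval in at least 3 of 5 livers in each group, for the 8 genes (red) and for all protein-coding genes (grey). The red bars stand for 0 of 8 genes in the WT groups and 7 of 8 in the KO groups, and the grey bars reach 29.0% in KO Pio.

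Cpe, the exopeptidase, had the highest values of the 8 genes. It lies on chr8:64592542-64693054 on the minus strand (ENSMUSG00000037852.8), and its exons make up 2.60% of the 100.5 kb gene body. In KO Control its strongest fold enrichment was 9.95, 17.3, 19.3, 15.7 and 16.9 in replicates 1 to 5, a mean of 15.8 ± 3.53 (SD, n = 5). In KO Pio it was 16.1, 20.1, 16.3, 19.2 and 15.2, a mean of 17.4 ± 2.12 (SD, n = 5). The 4 KO groups overlapped, since KO HFD gave 18.4, 15.4, 19.3, 15.9 and 21.1 with a mean of 18.01 ± 2.38 (SD, n = 5). In KO HFD-Pio the values were 17.7, 14.6, 15.5, 24.1 and 10.1, a mean of 16.4 ± 5.11 (SD, n = 5), with both the highest and nearly the lowest KO value in this group. Each KO liver held 8 to 11 intervals on Cpe, and the 3 WT intervals, 1 each in Control replicate 4, Pio replicate 3 and HFD replicate 2, were in introns at 3.64 to 4.36.

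All 9 exons of Cpe carried a summit in KO livers. Exons 1, 2, 3, 5, 6 and 9 carried one in 20 of 20 livers, exon 4 in 16, exon 8 in 15 and exon 7, the shortest at 100 bp, in 13. The leading site, in 20 KO libraries, covered the last exon (chr8:64592508-64593323), where 20 of 23 summits were in the exon outside the coding part, with a mean fold enrichment of 16.5 ± 3.81 (SD, n = 20 livers). Cpe sites in 20 KO libraries also lay over exon 5, at 10.6 ± 2.99, over exon 2, at 9.55 ± 2.66, and over exon 3, at 8.56 ± 2.57. The 3 remaining sites of this kind, over exons 1, 6 and 8, averaged 8.25 ± 2.67, 6.75 ± 1.62 and 5.77 ± 1.69. The sites over exons 4 and 7 were in 19 and 17 libraries, at 8.21 ± 1.89 and 5.24 ± 1.37. None of these 9 sites was called in a WT library.

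Pcsk1n, the PCSK1 inhibitor gene, was the other member called in 20 of 20 KO livers and was called in 0 of 20 WT livers. It lies on chrX:7919822-7924410 on the plus strand (ENSMUSG00000039278.10) and shares its 3′ end with Eras, and 0 of its 51 intervals reached into Eras. In KO Control its strongest fold enrichment was 7.80, 13.9, 13.1, 6.38 and 13.99, a mean of 11.04 ± 3.65 (SD, n = 5). In KO Pio it was 13.2, 13.1, 10.1, 12.2 and 12.4, a mean of 12.2 ± 1.24 (SD, n = 5). Control replicates 1 and 4 lay below all Pio livers, and the other 3 lay within or above the range of the Pio livers. In KO HFD it was 9.59, 11.02, 12.7, 6.93 and 7.64, a mean of 9.58 ± 2.39 (SD, n = 5). In KO HFD-Pio it was 7.15, 15.5, 10.9, 8.56 and 10.2, a mean of 10.5 ± 3.17 (SD, n = 5), so that all 4 KO groups overlapped. The site over the start of exon 3 (chrX:7922801-7923253) averaged 10.4 ± 3.11 and that over exon 2 (chrX:7921932-7922598) 7.97 ± 2.103 in 20 livers each. The site over exon 1 (chrX:7919854-7920147) was in 11 KO libraries at 6.44 ± 1.66.

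Scg5, which encodes the PCSK2 chaperone 7B2, was called in 19 of 20 KO livers and in 0 WT livers. It lies on chr2:113776362-113829121 on the minus strand (ENSMUSG00000023236.7). Its strongest fold enrichment ran from 3.75 to 6.80 with a median of 5.202, and KO Control replicate 4 was the liver without an interval. The group means were 4.60 ± 0.964 (SD, n = 4 called livers) in KO Control, 5.45 ± 0.814 (n = 5) in Pio, 5.26 ± 0.968 (n = 5) in HFD and 5.22 ± 1.06 (n = 5) in HFD-Pio, and the groups overlapped. Its leading site covered the last exon (chr2:113776386-113776991, 17 libraries), followed by sites over exon 3 (chr2:113791803-113792134, 12 libraries) and exon 2 (chr2:113827258-113827572, 10 libraries).

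Scg3, a granin that binds chromogranin A at the granule membrane, was called in 19 of 20 KO livers, all but HFD replicate 5. It lies on chr9:75643189-75684056 on the minus strand (ENSMUSG00000032181.7). In KO Control its strongest fold enrichment was 6.53, 6.08, 6.13, 5.42 and 11.4, with replicate 5 far above the others. The group means were 7.11 ± 2.42 in Control, 8.21 ± 2.095 in Pio and 6.77 ± 1.32 in HFD-Pio (SD, n = 5 each) and 6.62 ± 0.933 (n = 4 called livers) in HFD. Of its 12 exons, 10 carried a KO summit. Exon 1 did so in 19 livers, the last exon in 17, exon 7 in 12, exon 10 in 11 and exon 4 in 10, and exons 2 and 9, of 53 and 84 bp, in none. The leading site covered exon 1 (chr9:75683575-75684005, 19 libraries, mean 6.20 ± 1.66), and sites in at least 10 libraries also lay at chr9:75643233-75644046 (17), chr9:75681839-75682323 (13), chr9:75661141-75661526 (12), chr9:75669122-75669483 (12) and chr9:75676574-75676905 (11). Its 3 WT intervals, from Control replicate 2 and Pio replicate 3, were intronic.

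The chromogranin genes Chga and Chgb and the secretogranin gene Scg2 had lower values, and their intervals concentrated on the longest coding exons. Chga lies on chr12:102554969-102565028 on the plus strand (ENSMUSG00000021194.6) and was called in 18 of 20 KO livers at 3.60 to 7.36, with a median of 5.40. Its exon 6 of 417 bp carried a summit in 16 livers and exon 7 of 476 bp in 9, and exons 2 to 5, of 47 to 159 bp, carried none. The leading site was chr12:102561591-102562124 (16 libraries, mean 4.91 ± 0.824).

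Chgb lies on chr2:132781278-132795079 on the plus strand (ENSMUSG00000027350.8) and was called in 19 of 20 KO livers at 3.77 to 7.42, with a median of 5.70, and in 0 WT livers. Its exon 4 of 1766 bp carried a summit in 19 livers, and its first exon, of 505 bp, in none. The leading site was chr2:132792321-132794095 (19 libraries, mean 5.90 ± 1.03). Scg2 lies on chr1:79434669-79440120 on the minus strand (ENSMUSG00000050711.7) and was called in 18 of 20 KO livers at 2.83 to 6.65, with a median of 4.67. All its KO exonic summits were in exon 2, of 2350 bp, in 2 sites at chr1:79435842-79437072 (16 libraries, mean 4.31 ± 1.09) and chr1:79434947-79435826 (14 libraries, mean 3.87 ± 0.695). Exon 1, of 165 bp, carried none.

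Vgf, a granin-like neuropeptide precursor gene on chr5:137026392-137033351 (plus strand, ENSMUSG00000037428.14), was called in 5 of 20 KO livers and in 0 WT livers. The 5 were Control replicates 2 and 5, Pio replicate 4, HFD replicate 1 and HFD-Pio replicate 3, at 4.99, 5.51, 5.54, 6.24 and 4.61. All its 6 intervals had their summit in exon 5, of 2386 bp, which holds all of its coding bases, and its leading site was in 3 libraries.

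Position within the genes separated exons from introns. Of 527 KO intervals, 486 (92.2%) had their summit in an exon of the member, 38 in an intron and 3 just outside the gene body, whereas exons made up 8.55% of the 235 kb of gene bodies. Of the exonic summits, 82.1% were in coding exons. Counting only summits inside the gene body, 92.75% of the members' KO summits were in an exon, coding or not. Over all protein-coding genes this exonic share was 81.5% in KO livers and 38.2% in WT livers, so the exonic position was shared by intervals on other genes. The exonic share was 4.63% in WT Control and 46.5% in WT Pio over all genes. Of the 9 WT intervals on the 8 genes, 7 were intronic and 2 were in the last exon of Chga, in Pio replicate 3 and HFD-Pio replicate 4. Both are among the 6 libraries with fragment lengths under 50 bp, and the 9 WT intervals had pileups of 2 to 5 tags.

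Per kb of sequence, the median KO liver had 1.27 summits in exons of the 8 genes, 0.00931 in introns and 0.0438 in the 5 kb on each side of the genes. The lowest KO liver had 0.697 per kb of exon, above the highest KO value in introns, 0.0233, and in flanks, 0.0875. In WT livers the median was 0 for all 3 parts.

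**Figure D3:**
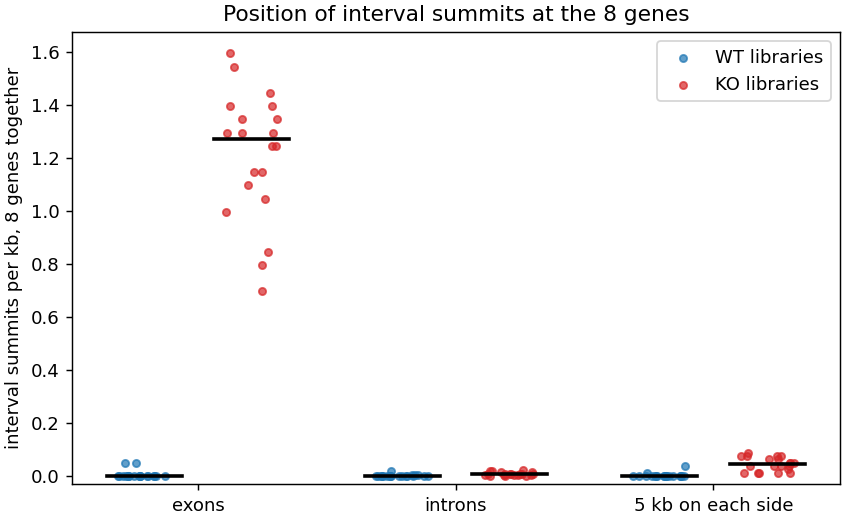
Interval summits per kb in exons, introns and the 5 kb on each side of the 8 genes together, for each WT (blue) and KO (red) library, with the median as a black line. KO libraries lie between 0.697 and 1.59 per kb of exon, and every other set of points lies at or below 0.0875.

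The shortest exons carried summits in the fewest livers. Of the 50 exons in 1 principal transcript per gene, 36 carried a summit in a KO liver and 22 did so in at least 10. The 22 had a median length of 219.5 bp against 115 bp for the other 28. Of 20 exons of at least 200 bp, 12 were in at least 10 livers, of 17 exons of 100 to 199 bp 10 were, and of 13 exons under 100 bp 0 were. The genes also differed, since all 9 exons of Cpe and all 3 of Pcsk1n were in at least 10 livers, and 1 of 8 of Chga was. Cpe and Pcsk1n had 0 exons under 100 bp, and 7 of the 10 exons of 100 to 199 bp in at least 10 livers were from Cpe. Exon length and gene are therefore not separated here. Recurrent sites, merged over libraries, extended past short exons on both sides. At all 11 sites over an exon of at most 200 bp both ends lay 77 to 153 bp beyond the exon, with a median of 111 bp. These ends are the outermost over all libraries of a site, and the estimated fragment length in KO libraries was 119 to 168 bp. How far the signal itself ran into introns was not tested.

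**Figure D4:**
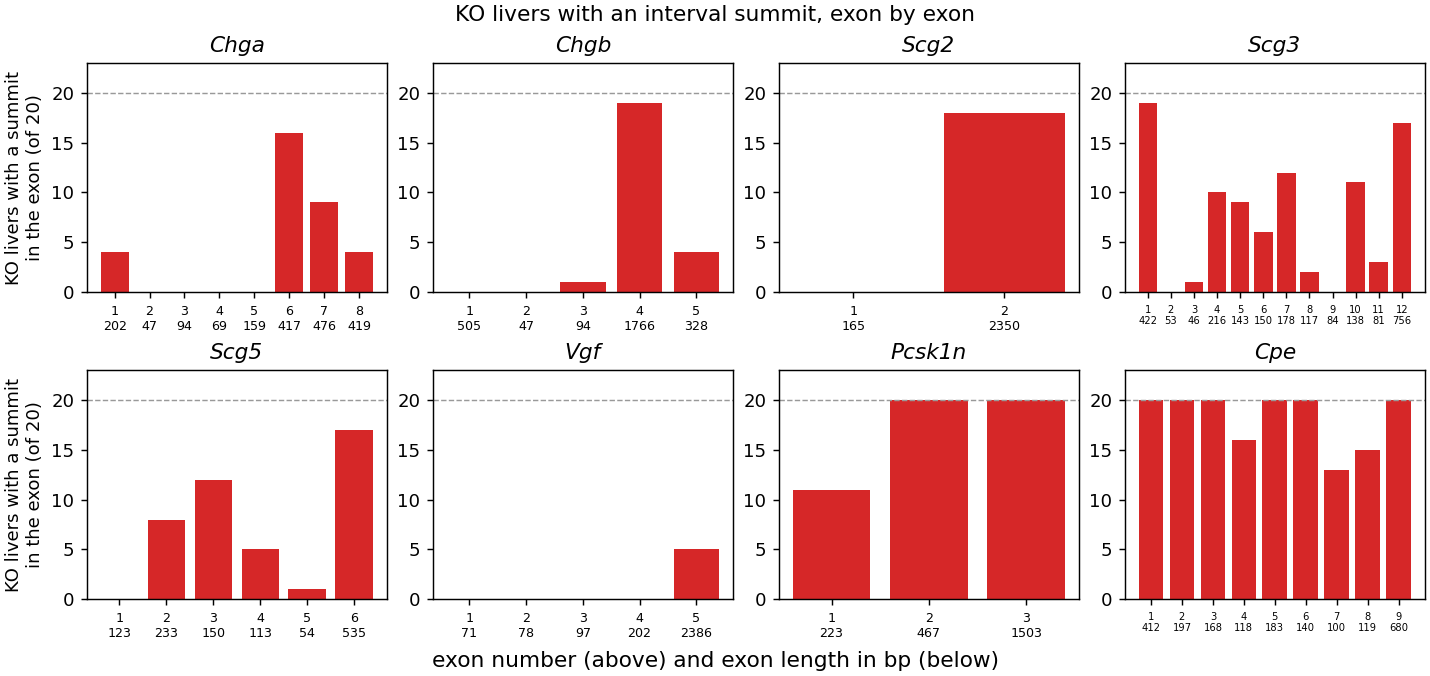
Number of KO livers, of 20 (dashed line), with an interval summit in each exon of 1 principal transcript per gene, with the exon number and its length in bp on the horizontal axis. Every Cpe exon is filled, and for Chga, Chgb, Scg2 and Vgf the tallest bar stands on a long coding exon.

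Few tags supported each interval. The 527 KO intervals had a median pileup of 5 tags at the summit, with a range of 2 to 25, and a median width of 245 bp. Chga, Chgb, Scg2 and Scg5 reached at most 6 or 7 tags, and Cpe had a median of 18 at its strongest interval. At this depth, the absence of an interval on a gene such as Vgf in a KO liver does not show absence of signal. The number of intervals on the 8 genes was lowest in the 2 KO livers with the fewest intervals in all, 14 in Control replicate 4 and 17 in HFD replicate 5, against 19 to 33 in the other KO livers. As a share of all intervals they were highest in these same 2 livers, at 0.184% and 0.205%, against 0.1003% to 0.139% in the rest. Control replicate 4 also kept the most tags of any KO library.

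**Figure D5:**
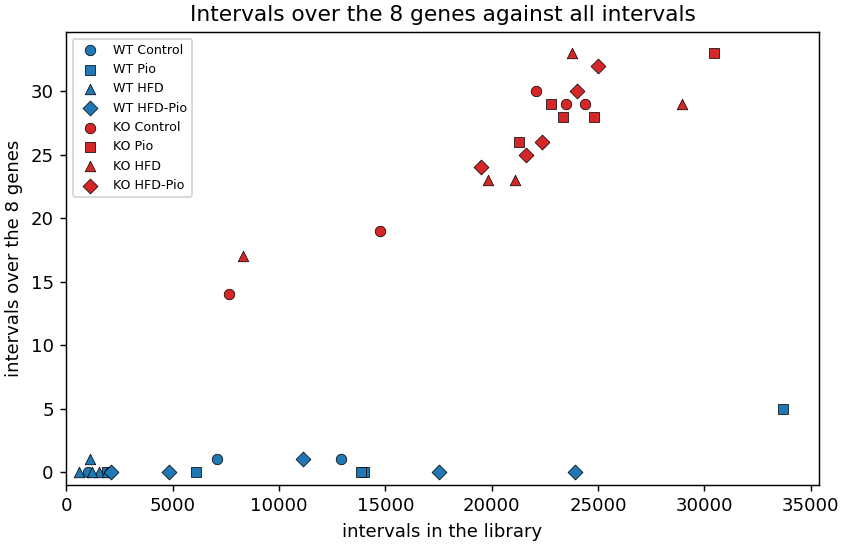
Intervals on the 8 genes against all intervals of a library, with WT in blue, KO in red and a marker for each treatment. KO libraries lie at 14 to 33 intervals, and WT libraries lie at 0 to 5 over a range of list lengths that includes that of the KO libraries.

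Exact copies of the receptor hexamer were in a minority of member sites and of all recurrent sites. RXR heterodimers bind direct repeats of the hexamer AGGTCA, and with PPARγ the repeats are spaced by a single base (AGGTCANAGGTCA). In windows of 200 bp around the median KO summit, 2 of the 25 member sites in at least 10 libraries (8.0%) held AGGTCA on either strand, over Cpe exon 7 and Scg3 exon 7. The share was 12.9% of 10306 sites in at least 10 KO libraries and 10.4% of 231 sites in at least 10 WT libraries. The full repeat was in 0 of 25 member windows and in 1 of 10306. Of the printed sequences, Chgb exon 4 and Scg3 exon 7 held 1 AGGTCA each on either strand. The median summit of Chgb exon 4 was 889 bp from the exon start, so its 200 bp window did not reach the printed bases. GC content of the 25 member windows ran from 35.5% to 75%, lowest at the last exon of Scg3.

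Most of the promoter windows that could be examined were empty. RefSeq promoter windows, from 250 bases before to 50 after the start, matched 6 of the 8 genes (Cpe and Vgf had none). In 5 of the 6, no library had an interval in the window, and in Pcsk1n 3 KO livers had an interval reaching in with 0 summits inside. The leading site of Scg3 ended at chr9:75684005, just short of its window, which began at chr9:75684007. Cpe had no window, but its site over exon 1, in 20 KO libraries, extended 28 bp upstream of the gene start. None of the 6 windows held AGGTCA on either strand, against 16.3% of 32851 promoters.

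No member counted as gained or lost with pioglitazone, and nothing about the members is read from this count. A gene counted as gained when called in at least 3 of 5 treated and 0 of 5 untreated livers, and as lost in the opposite case. The genes were chosen with these calls in view. In WT livers no member reached 3 livers of a group. In each KO group 7 of 8 reached 4 and Vgf did not reach 3, so the counts of 0 were fixed by the choice. In WT livers 0 of 8 were gained, against 7.5% of all genes with Pio over Control and 7.67% with HFD-Pio over HFD. In KO livers 0 of 8 were gained, against 0.811% and 0.474%. The shares of all genes lost were 0.0684%, 0.00456%, 0.187% and 0.296% in the same order, and 0 of 8 members were lost in each. With all lists of KO Pio and Control shortened to 7630 intervals, Scg2 alone turned to lost, in 0 of 5 Pio and 3 of 5 Control livers.

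Within KO livers no member site passed the test between treatments. The test was limma on log2 fold enrichment, centred on each liver, at sites called in all 10 livers of a contrast, with Benjamini-Hochberg adjustment over all sites. For Pio against Control 10 member sites of Cpe, Pcsk1n and Scg3 could be tested, and 0 were called against 0.478% of 2508 sites. Their median log2 difference (Pio minus Control) was 0.23, beside 0.21 for all sites. Leaving out 1 liver moved it to between 0.02 (without Control replicate 4) and 0.33 (without Control replicate 5). The site over Scg3 exon 1 had the smallest adjusted p in this contrast, 0.37 by limma, with a log2 difference of 0.64 ± 0.25 (SE) and an unadjusted p of 0.01004. For HFD-Pio against HFD 0 of 11 sites were called against 0.036% of 2775, with a median difference of 0.12, and 0 of 11 had an unadjusted p below 0.05. Leaving out 1 liver moved this median to between -0.02 (without HFD replicate 5) and 0.19 (without HFD replicate 2). For HFD against Control 0 of 10 were called, and over all 2282 sites limma called 0 (0%), with 45 at an unadjusted p below 0.05, of which 0 were member sites. For HFD-Pio against Pio 0 of 13 were called, and over all 3251 sites limma called 0 (0%), with 190 at an unadjusted p below 0.05. One of these was the Cpe site over exon 8, at 0.65 ± 0.23 (SE) with an adjusted p of 0.667. Over the 4 contrasts the 95% intervals of the member differences reached from -0.93 to 1.13 on the log2 scale. Only those of 2 sites named above reached a 2-fold change, and both lay above 0, without adjustment for the number of sites. They were Scg3 exon 1 (0.155 to 1.13, Pio against Control) and Cpe exon 8 (0.185 to 1.11, HFD-Pio against Pio). At the other tested sites only changes short of 2-fold lay within the error. Chga, Scg2, Scg5 and Vgf had no site called in all 10 livers of any contrast and were not tested.

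Other genes of the same pathway were called in part. Of 14 prohormone cleavage and end modification genes, 4 were called in at least 3 of 5 livers of all 4 KO groups, beside 20.3% of all genes. Ctsb, a lysosomal protease, and Pam, which amidates peptide ends, were called in 20 KO livers at means of 9.36 and 6.60. They were called in 2 and 12 WT livers. Pcsk2, the convertase served by 7B2, was called in 19 KO and 7 WT livers, and Cpd, a carboxypeptidase related to Cpe, in 16 and 2. Pcsk1, the convertase inhibited by proSAAS, had no interval in any KO liver and was called in 2 WT livers. Of 17 genes of the dense-core granule machinery, 8 were called in all 4 KO groups. Vamp2, Rab3a, Snap25 and Syt7, which act in vesicle docking and fusion, were called in 20 KO livers at means of 16.7, 9.75, 9.31 and 7.24. In WT livers they were called in 3, 0, 8 and 2.

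The genes whose values over the 40 libraries were most like the mean of the 8 members included Palm, Chmp4b, Dcx and Npdc1. Likeness was Pearson's r of log2(1 + strongest fold enrichment), with 0 for no interval, and it was 0.986, 0.985, 0.984 and 0.984. These 4 were called in 20 of 20 KO livers and in 0 or 1 WT livers. Across the 20 KO livers alone r was 0.581, 0.663, 0.511 and 0.757. Libraries share depth and cutoff within a genotype, and 1309 genes reached an r of at least 0.9.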

How the data were processed

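RXR ChIP-Seq files of 40 livers were used, and the 40 inputs had no file of their own among those analysed. The authors aligned reads to mm10 with Novoalign and called peaks in each library against its input with MACS2. The deposited lists give fold enrichment over local input (a ratio), the pileup at the summit (a signal in tags), and -log10 p-values and -log10 q-values. Per the file headers the cutoff was p of 0.001 in WT and q of 0.05 in KO libraries. Both deposited files of a library held the same peaks in 40 of 40 libraries. Reads per site were not used here.

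Groups came from the sample labels. The 8 genes and all gene lists were chosen with earlier results of these data known, and the lists (prohormone cleavage, granule machinery, peptide precursors, neuron, enteroendocrine and islet, hepatocyte, cholangiocyte and stellate cell markers) support nothing by themselves. Named were all members, each member's site called in most libraries, every site called in at least 10, the 5 most similar genes and up to 4 genes a list. Some listed genes with no KO interval and all 10 cholangiocyte and stellate cell markers were named too, after their values were seen. Values of a few genes under this rule are not reported here.

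Summits of 1 interval were merged, intervals sharing at least 1 bp became sites, and positions came from GENCODE M21. Differences between KO groups were tested with limma 3.58.1 (R 4.3.3; moderated, trend, two-sided; a call needed an adjusted p below 0.05 and a 2-fold difference), after a check on simulated data. Nothing in the labels marks livers of a number as related, and p-values measure the spread between livers. Python 3.11.15, pandas 2.3.3 and numpy 2.4.6 did the rest. Alternatives were other thresholds, overlaps and numbers of livers, shortened lists, limma settings, left-out livers and, chosen after seeing the data, both KO libraries with the fewest peaks left out.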

Additional observations from a re-analysis of the deposited data

Results flagged for a closer look

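Single livers stood far from the others of their group in 8 of 44 sets of 4 or 5 livers examined, by the gap to the nearest liver as a share of the range. Chance flags about 1 in 20 such sets, and sets in which every other liver is at 0 are flagged by any single interval. WT Pio replicate 3 held 5 intervals on 4 of the 8 genes (Chga, Scg2, Scg3 and Cpe), and the other 4 WT Pio livers held 0. This library had the most intervals of all, 33705, and a fragment length under 50 bp. WT HFD replicate 2 held 1 interval on 1 gene (Cpe), and WT HFD-Pio replicate 4 held 1 interval on 1 gene (Chga), with 0 in the other livers of each group. In KO Pio, replicate 4 had all 8 genes called, and the other livers had 7. The strongest fold enrichment on Scg3 was 11.4 in KO Control replicate 5 and 5.42 to 6.53 in the other 4 livers. The causes were not tested.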

How the results depend on the processing

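Of 274 recomputed values, 270 stayed within 1.5 times the reported count, or within 1 SD of the reported share. A change of direction was not scored. The WT counts of 0 could not rise under a stricter setting or with a liver left out, so this total overstates how firm the results are. With -log10 q of at least 5 the members called in KO Control fell to 4, and with fold enrichment of at least 5 to 4 in KO Control and 4 in KO HFD, each time Chgb, Scg3, Pcsk1n and Cpe. With the lists shortened to the shortest, members gained or lost in KO Pio against KO Control rose to 1, which was Scg2. The causes were not tested. With 1 common q cutoff of 0.05, 4 WT intervals were left, 25% of them exonic, and with the 2 stricter thresholds no WT interval was left, so that share has no value there. Without both KO libraries with the fewest peaks the KO exonic share was 91.9%. The replicate block in limma left 0 member sites called in each of the 4 contrasts, and same-numbered livers did not deviate together (correlations of -0.0761 to 0.0486, 0 of 5 pairs above 0.1 in each contrast), so livers were not treated as paired. Leaving out any liver kept 0 member sites called. Low tag numbers in KO libraries limit what a missing interval means.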

Other observations

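Genes for the cargo of dense-core granules were called for a few peptides. Of 30 neuropeptide and peptide hormone precursor genes, 18 had no interval in any KO liver and 2 were called in at least 3 of 5 livers of all 4 KO groups. Over all 21938 genes, 9274 had no KO interval and 20.3% were called in all 4 KO groups. Sst (somatostatin) and Npy (neuropeptide Y) were called in 19 of 20 KO livers at means of 9.09 and 6.08, and in 0 WT livers. The summit was in an exon for 30 of 30 KO intervals of Sst and for 30 of 36 of Npy. Cck (cholecystokinin) was called in 14 KO livers and Nts (neurotensin) in 13. The genes without a KO interval included Pomc, Gcg, Iapp, Pyy and Calca, which are hormones of pituitary, pancreas, gut and thyroid cells. They also included the neuropeptide genes Vip, Adcyap1, Cartpt, Pnoc, Trh, Crh, Avp and Oxt, so the empty genes were not of 1 kind.

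Of 13 enteroendocrine and islet markers, 5 had no KO interval, Neurog3, Pdx1, Tph1, Fev and Mafa, beside 9274 of all 21938 genes. The summed fold enrichment of the list was 0 to 22.4 in KO livers and 0 to 10.6 in WT livers. Of 10 cholangiocyte and stellate cell markers, 2 were called in all 4 KO groups, beside 20.3% of all genes. These were Reln and Col1a1, in 20 and 18 KO livers and in 10 and 7 WT livers too. Krt19, of bile duct cells, was called in 1 KO and 8 WT livers. Other markers of the list went the other way, with Krt7 in 10 KO and 7 WT livers and Sox9 in 6 and 1. Des was called in 6 KO and 0 WT livers, Pdgfrb in 4 and 1, Dcn in 9 and 7, and Epcam in 1 and 1. The summed fold enrichment of this list was 4.97 to 29.4 in KO and 0 to 54.7 in WT livers. Reln encodes an extracellular protein that stellate cells and neurons both make. Lrat, which stores vitamin A in stellate cells, had no KO interval and was called in 1 WT liver.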
